A study of Mus musculus with 4 samples.

Results

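The miR-17~92 cluster was followed across 4 small RNA libraries of mouse embryonic fibroblasts (MEFs), cells grown out of mouse embryos. Its members were taken by name, as every listed row for miR-17, miR-18a, miR-19a, miR-19b, miR-20a or miR-92a with or without a star, which gave 10 of the 508 endogenous microRNAs in the count tables. The tables list them with the mouse prefix, as in mmu-miR-17, mmu-miR-18a, mmu-miR-19a, mmu-miR-19a*, mmu-miR-20a, mmu-miR-19b and mmu-miR-92a, which is left off from here on. These 10 are 6 guide strands and 4 star strands (miR-17*, miR-18a*, miR-19a* and miR-20a*), a star marking the arm of a hairpin that was named as the passenger. All 4 groups carried shLuc.1309, a short hairpin RNA (shRNA) whose target, luciferase, is not a mouse gene. The groups were shLuc.1309 with ROSA-rtTA and doxycycline (dox), shLuc.1309 with ROSA-rtTA and no dox, shLuc.1309 alone with dox, and shLuc.1309 alone without dox. ROSA-rtTA places the reverse tetracycline transactivator (rtTA) at the broadly active Rosa26 locus, and rtTA, once bound by dox, activates promoters with tetracycline operators. The sources used here do not give the dox dose, its duration, the age of the embryos or the number pooled. Each group had 1 library, so no difference below has a replicate check and every comparison is between libraries, not conditions.

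The miR-17~92 cluster is a polycistron, a single primary transcript from which Drosha and Dicer cut several microRNA hairpins. It is known as a proliferative and anti-apoptotic locus that MYC and E2F factors switch on, and loss of it in mice is lethal around birth. Its microRNAs recognise targets through the seed near the 5′ end: the miR-17 seed group is known to restrain the cell cycle inhibitor p21 and the death factor Bim, the miR-18 group components of TGF-beta signalling, and the miR-92 group Bim and integrin alpha 5.

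The mature sequences are shown because the members fall into 4 seed groups and because near-identical sequences set a limit on the counts. They are credited to RefSeq (GRCm38.p6), run 5′ to 3′ and are listed in the order of the hairpins, with bases 2 to 8, the seed, in capitals.
miR-17: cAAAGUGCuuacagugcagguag
miR-17*: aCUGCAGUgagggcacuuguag
miR-18a: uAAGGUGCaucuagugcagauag
miR-18a*: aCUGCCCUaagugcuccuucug
miR-19a: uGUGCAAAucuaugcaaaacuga
miR-19a*: uAGUUUUGcauaguugcacuac
miR-20a: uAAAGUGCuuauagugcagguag
miR-20a*: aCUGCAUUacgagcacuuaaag
miR-19b: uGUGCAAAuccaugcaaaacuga
miR-92a: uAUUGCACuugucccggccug
Of the 10 deposited sequences, 9 matched a RefSeq mature entry, and that of miR-19a* was found within the RefSeq hairpin of Mir19a. miR-17 and miR-20a share a seed and differ by 2 mismatches over their length, and miR-19a and miR-19b share a seed and differ by 1. miR-17 is also 1 mismatch away from miR-106a, a member of a related cluster on chromosome X. How reads that fit more than 1 microRNA were treated is not given in the sources used here, so counts within these pairs are uncertain.

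The 6 hairpins span 836 bases on the plus strand of chromosome 14 (chr14:115043671-115044506, GRCm38), inside exon 2 of the noncoding host gene Mir17hg (GENCODE M21). The mature miR-17 lies at chr14:115043684-115043706, miR-18a at chr14:115043867-115043889, miR-19a at chr14:115044048-115044070, miR-20a at chr14:115044183-115044205, miR-19b at chr14:115044358-115044380 and miR-92a at chr14:115044476-115044496. miR-19b and miR-92a have a further identical copy on the minus strand of chromosome X (chrX:52741991-52742013 and chrX:52741854-52741874), so their counts cannot be assigned to 1 locus. The chromosome X cluster, miR-106a-363, can be followed through the microRNAs that only it holds. Its 5 listed ones (miR-106a, miR-18b, miR-20b, miR-20b* and miR-363) together reached 26.9 CPM, the counts scaled to 1000000 endogenous microRNA counts of a library, in rtTA cells with dox, 26.0 CPM in rtTA cells without dox, 24.6 CPM in dox-treated cells without rtTA and 30.3 CPM in untreated cells without rtTA. The 10 members of miR-17~92 together reached 16051 to 18893 CPM.

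The libraries held 6383594 to 8780954 counts. The shRNA row was left out of the totals behind CPM. The shRNA stood at 24386 CPM in rtTA cells with dox and at 786, 774 and 726 CPM in rtTA cells without dox, in dox-treated cells without rtTA and in untreated cells without rtTA. The fibroblast and mesenchymal markers, 10 of 11 of them listed, summed to 515516 to 527791 CPM. They include miR-21, miR-22, miR-29a and miR-29b, and whether they are particular to fibroblasts was not tested. In rtTA cells with dox miR-22 was at 128127 CPM, miR-29b at 37980 CPM and miR-29a at 32462 CPM. Markers of other cell types summed to at most 589 CPM (muscle), and 4 of 9 pluripotent markers were listed, with a sum of at most 0.666 CPM. The muscle markers were at 589 CPM in rtTA cells with dox and at 378, 245 and 261 CPM in the other libraries in the order above; their part in the results was not tested.

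miR-20a was the dominant microRNA of the cluster in all 4 libraries. Its level was 12085 CPM in rtTA cells with dox, 9628 CPM in rtTA cells without dox, 9543 CPM in dox-treated cells without rtTA and 9910 CPM in untreated cells without rtTA, which placed it at rank 15, 20, 18 and 19 among the endogenous microRNAs. The induced library was thus the highest, and the other libraries lay close together. miR-18a came next, at 2282, 1894, 2287 and 2409 CPM in the same order, with the untreated rtTA library lowest. miR-92a was at 996, 1618, 1362 and 1714 CPM, and the library with the induced shRNA was the lowest for this member, where it was the highest for miR-20a.

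miR-17, the first hairpin of the transcript and of the same seed group as miR-20a, had 1292, 1078, 927 and 1354 CPM in rtTA cells with dox, rtTA cells without dox, dox-treated cells without rtTA and untreated cells without rtTA. Its partner arm miR-17* had 1276, 1050, 957 and 974 CPM. The 95% counting intervals of the 2 arms overlapped in 3 libraries but not in untreated cells without rtTA, where miR-17 was the higher. The miR-19 pair was rarer: miR-19b had 716, 664, 657 and 617 CPM, and miR-19a had 182, 221, 235 and 211 CPM. Within these 2, miR-19b ran highest and miR-19a lowest in the induced library. In every library the guides were thus ordered miR-20a, miR-18a, then miR-17 and miR-92a, then miR-19b and miR-19a, and miR-17 stood above miR-92a only in the induced library.

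**Figure D1:**
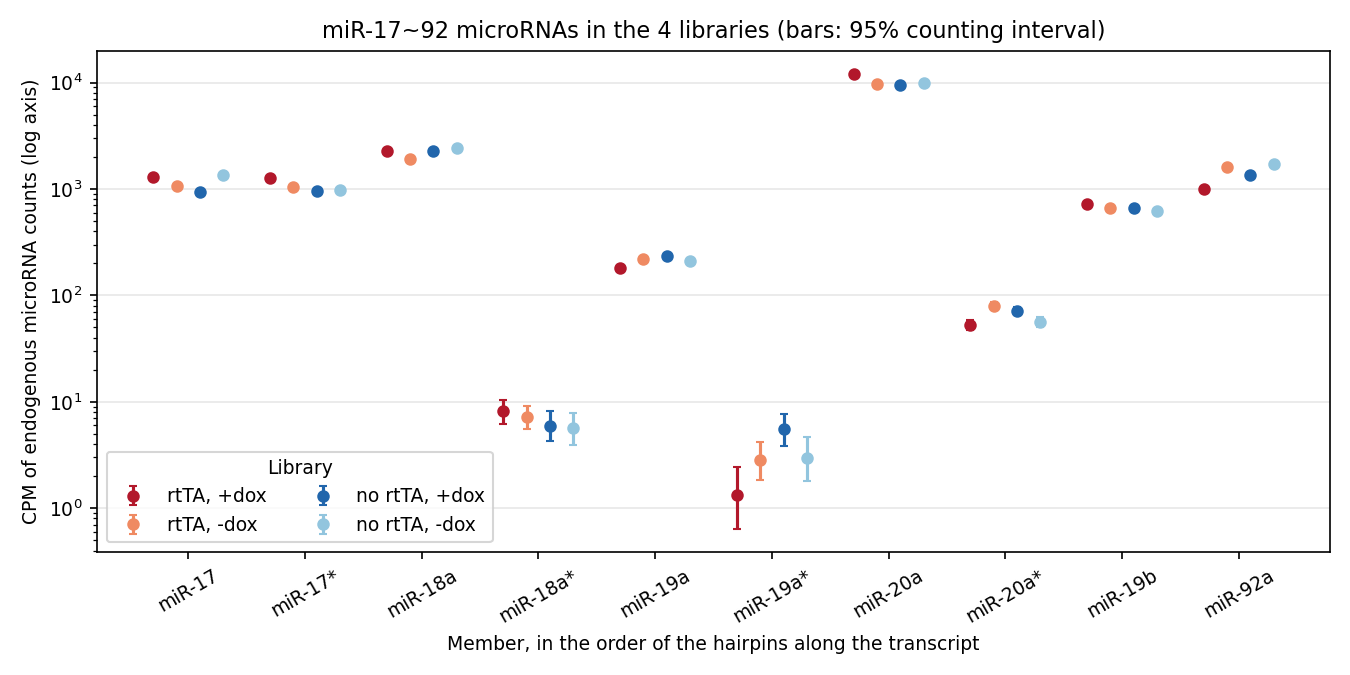
Level of each member of the miR-17~92 cluster in CPM of endogenous counts, on a log axis, in the 4 libraries; points are single libraries and bars the 95% counting interval. miR-20a lies at 9543 to 12085 CPM, far above the other members, and miR-19a* at 1.33 to 5.50 CPM has the widest bars.

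Of the remaining star strands, miR-20a* had 52.7, 79.9, 71.1 and 56.6 CPM in rtTA cells with dox, rtTA cells without dox, dox-treated cells without rtTA and untreated cells without rtTA, and the lowest value was again in the induced library. miR-18a* rested on 61, 63, 39 and 36 counts, or 8.12, 7.18, 5.96 and 5.64 CPM. miR-19a* rested on 10, 25, 36 and 19 counts, or 1.33, 2.85, 5.50 and 2.98 CPM. Its intervals were wide (0.639 to 2.45 CPM in the induced library against 3.86 to 7.62 CPM in dox-treated cells without rtTA). Its mean of 3.17 CPM lay just above the floor of 3.14 CPM (20 counts in the shallowest library) that a microRNA had to reach to be compared; all 10 members reached it, as did 372 of the 508 microRNAs. For miR-19a* the level was above the floor in dox-treated cells without rtTA and below it in the other 3 libraries, so it was compared at all only through that library, and its ratios against that library are given as a description.

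As a share of the summed counts of the 10 members, which needs no scaling between libraries, miR-20a took 64.0% (95% Clopper-Pearson interval 63.7% to 64.2%) in rtTA cells with dox. It took 59.3% in rtTA cells without dox, 59.5% in dox-treated cells without rtTA and 57.4% in untreated cells without rtTA. miR-92a took 5.27% (5.16% to 5.39%) in rtTA cells with dox and 9.96%, 8.49% and 9.93% in the others in that order. miR-18a took 12.1%, 11.7%, 14.3% and 14.0%, so that it held a smaller share in both rtTA libraries than in both libraries without rtTA. The cluster as a whole made up 1.89%, 1.62%, 1.61% and 1.73% of endogenous counts. These intervals and all others here cover counting error only, because they rest on the reads of single libraries. PCR copies were not told apart from separate molecules in these counts, so the intervals may be too narrow even for counting error.

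Dox in rtTA cells was the comparison in which the shRNA was induced, and the drug and the shRNA changed together in it. Between the members the ratios pointed both ways: 6 of 10 were above 0 and 4 below, on the log2 scale of CPM with dox over CPM without. Of all 372 microRNAs compared, 172 were above 0 and 200 below. The call rule asked for a ratio of 2-fold or more whose 95% exact binomial interval excluded equality. By that rule none of the 10 members was counted as higher or lower, against 9.95% of the 372 microRNAs compared (1.34% higher, 8.60% lower), and no p-value was computed because each group has 1 library. The median of the members was 0.14, against -0.057 over all 372 microRNAs, and 7 of 10 lay within 1.5-fold, against 69.9% of all.

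Higher in the induced library, but within 1.5-fold, were miR-20a at a log2 ratio of 0.33 (0.31 to 0.34), miR-17* at 0.28, miR-18a at 0.27 and miR-17 at 0.26, with miR-19b at 0.11 (0.055 to 0.16). Below 0 were miR-19a at -0.27 (-0.38 to -0.17), miR-20a* at -0.60 (-0.78 to -0.42) and miR-92a at -0.70 (-0.74 to -0.66), which is 0.616-fold. miR-19a* was at -1.10 with an interval of -2.32 to 0.011 that spanned equality. If the shRNA is counted in the total, miR-19a* is at -1.13 (-2.35 to -0.022) and 1 of the 10 members is counted as lower. These are bulk libraries, so fewer cells that express a microRNA and less of it per cell cannot be told apart.

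The gap between miR-92a and miR-20a was also measured within each library; miR-92a counts can include those of its chromosome X copy. There were 8.24 counts of miR-92a per 100 counts of miR-20a in rtTA cells with dox (8.05 to 8.44), against 16.8 in rtTA cells without dox (16.5 to 17.1). In cells without rtTA there were 14.3 with dox and 17.3 without. The induced library was the lowest of the 4, and its ratio was 0.491-fold that of rtTA cells without dox (0.476 to 0.505). For the other guides the same change against miR-20a was smaller: 0.955-fold for miR-17, 0.960-fold for miR-18a, 0.859-fold for miR-19b and 0.659-fold (0.614 to 0.706) for miR-19a. These changes were not adjusted for the trend on G described below. With that trend subtracted, the log2 ratios for dox in rtTA cells were 0.11 for miR-20a, 0.062 for miR-19a, 0.45 for miR-19b and -0.64 for miR-92a. By these ratios miR-19a lay near miR-20a, miR-19b above it and miR-92a still below it. Within the miR-19 pair there were 25.5 counts of miR-19a per 100 of miR-19b in rtTA cells with dox, against 33.2 without, a 0.767-fold change (0.709 to 0.829).

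**Figure D2:**
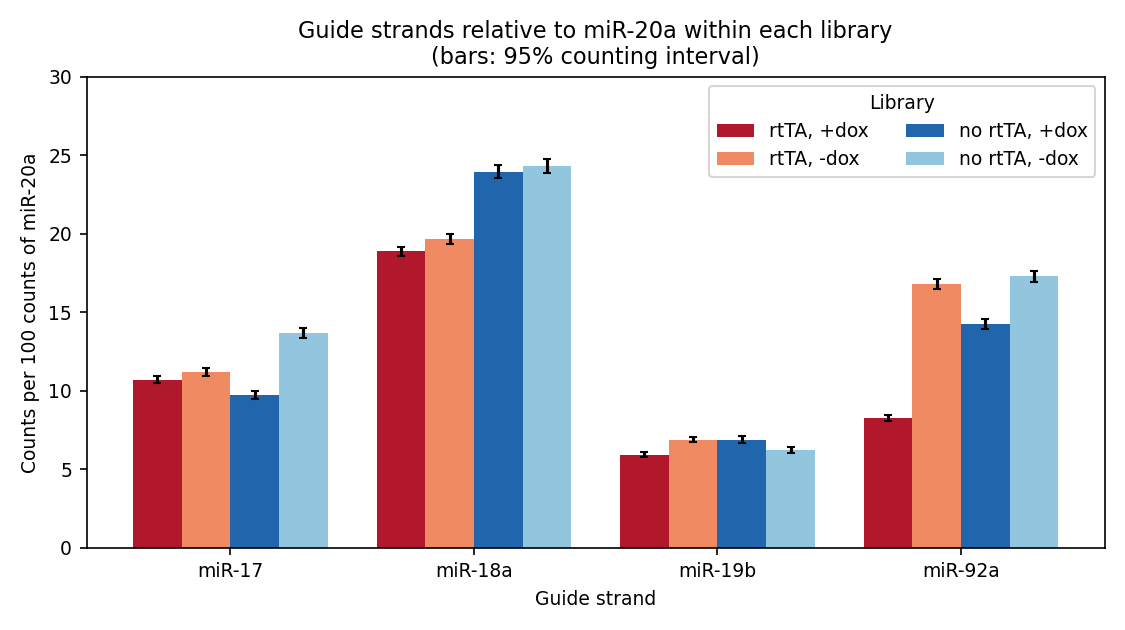
Counts of miR-17, miR-18a, miR-19b and miR-92a per 100 counts of miR-20a within each library, with 95% counting intervals as bars. miR-92a stands at 8.24 in rtTA cells with dox and between 14.3 and 17.3 in the other libraries, and miR-18a stands lower in both rtTA libraries than in both libraries without rtTA.

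Dox without rtTA shows the drug with the shRNA left uninduced. None of the 10 members was counted as higher or lower, against 1.61% of all microRNAs compared (0.806% in each direction), and 9 of 10 lay within 1.5-fold, against 83.1% of all. The median of the members was 0.027, against -0.039 over all; its sign turns with TMM factors (-0.018), without star names (-0.065) and without miR-19a* (-0.025). miR-17 had the lowest ratio, -0.55 (-0.59 to -0.50), with 927 CPM with dox against 1354 CPM without, while its partner arm miR-17* was at -0.025. miR-92a was at -0.33 (-0.37 to -0.29), and miR-18a and miR-20a lay near 0, at -0.075 and -0.054. miR-20a* was at 0.33, miR-19a at 0.15 and miR-19b at 0.092, and miR-19a* was at 0.89 (0.046 to 1.77).

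**Figure D3:**
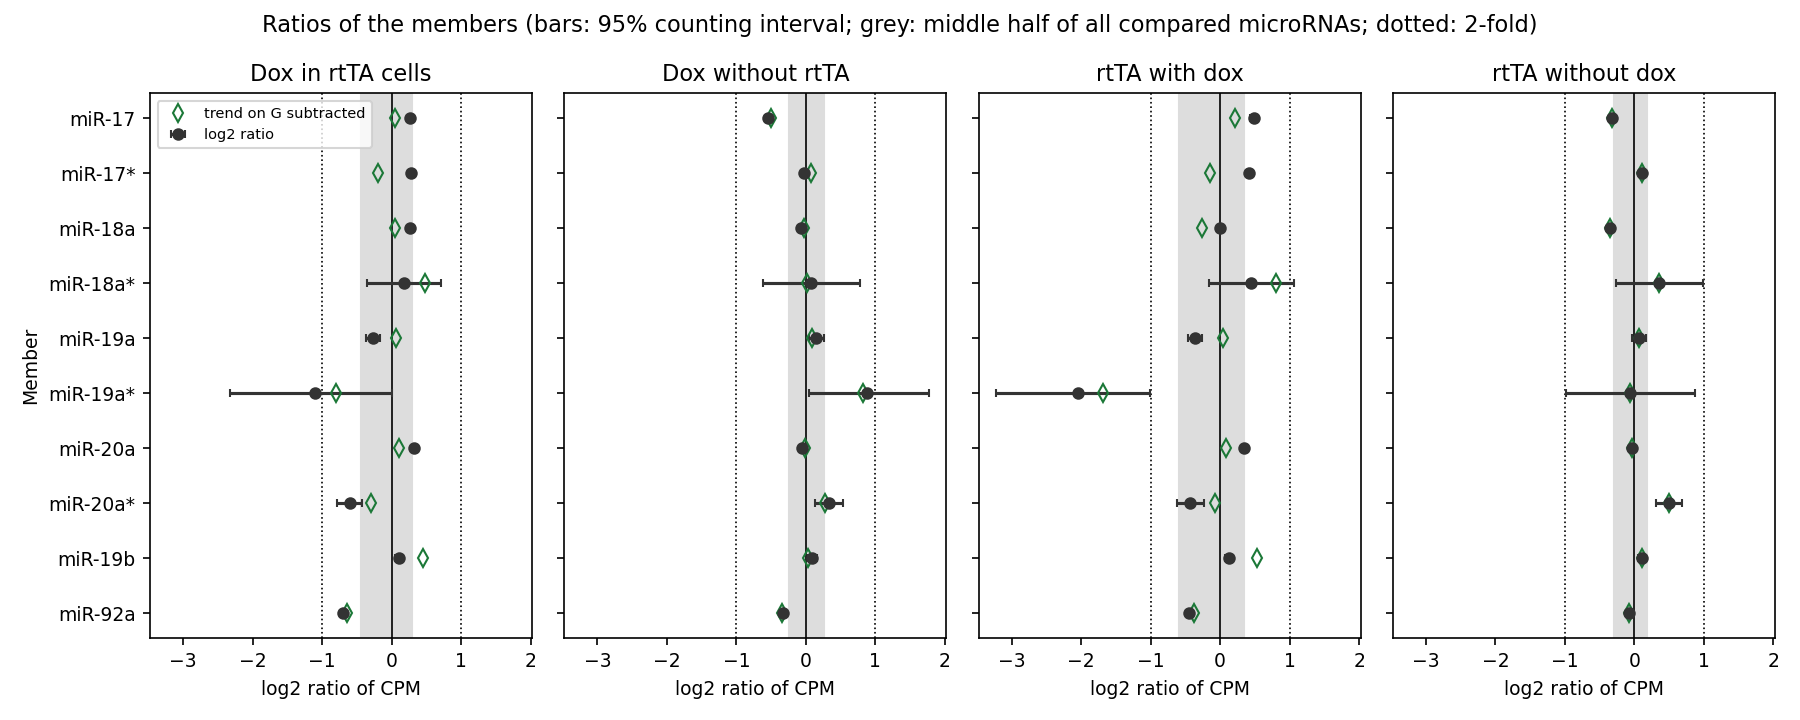
Log2 ratios of CPM for the 10 members in the 4 comparisons, each with its 95% counting interval; open diamonds give the ratio after a linear trend on the percentage of G was subtracted, grey bands the interquartile range of the 372 compared microRNAs and dotted lines 2-fold. Only miR-19a* in rtTA against no rtTA under dox, at -2.05, is past 2-fold with its whole interval below 0, and miR-92a is below 0 in each panel.

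The dox ratios with and without rtTA were set against each other for each member, with a delta-method interval after 0.5 was added to each count. They differed by at least 2-fold, with an interval off equality, for 1 of 10 members, against 18.0% of all microRNAs compared (5.65% higher, 12.4% lower). That member was miR-19a*, with a difference of -1.92 (-3.23 to -0.62), where the ratio was -1.10 with rtTA and 0.89 without. The 0.89 has on top the library through which miR-19a* passed the floor, so this count is no support for a difference. miR-20a* also had ratios of opposite sign, -0.60 and 0.33, with a difference of -0.93 (-1.19 to -0.66). For miR-17 the difference was 0.81 (0.75 to 0.87), for miR-20a 0.38 (0.36 to 0.40) and for miR-18a 0.34 (0.30 to 0.39). For miR-92a, which was below 0 in both, the difference was -0.37 (-0.43 to -0.31), and for miR-19b it was 0.017 with an interval of -0.066 to 0.099. With a linear trend on the percentage of G subtracted from both ratios, described below, the differences were 0.54 for miR-17, 0.12 for miR-20a, 0.079 for miR-18a, -0.56 for miR-20a*, -0.29 for miR-92a, 0.42 (0.34 to 0.50) for miR-19b and -1.56 for miR-19a*. Those of miR-17* and miR-19a were 0.31 and -0.42 without the subtraction and -0.26 and -0.019 with it.

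Under dox, rtTA cells were next set against cells with no transactivator; this comparison, rtTA with dox, shares the induced library with the dox comparison in rtTA cells. miR-19a* was at 1.33 CPM in rtTA cells with dox, against 5.50 CPM in dox-treated cells without rtTA, a log2 ratio of -2.05 (-3.22 to -1.01) on 10 and 36 counts. It was the 1 member of 10 counted as higher or lower, against 16.7% of all microRNAs compared (2.42% higher, 14.2% lower), and with star names left out there was none among the 6 guides. Since 5.50 CPM is also the value that took miR-19a* past the floor, nothing is read from this count. The median of the members was 0.060, against -0.074 over all. It was 0.12 without miR-19a* and 0.16 with TMM or DESeq2 factors, which raise every ratio of this comparison by 0.101 and 0.104. miR-17 was at 0.48, miR-17* at 0.42 and miR-20a at 0.34, while miR-92a was at -0.45, miR-20a* at -0.43 and miR-19a at -0.36. miR-18a was at -0.0036 (-0.035 to 0.028), with 2282 CPM in rtTA cells and 2287 CPM in cells without rtTA, and its sign turns under TMM (0.097) and DESeq2 factors (0.10) and without the 10 most abundant microRNAs in the total (0.021). With the trend on G subtracted it was at -0.27.

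In the last comparison, rtTA without dox, both libraries were uninduced and differed in genotype. All 10 members lay within 1.5-fold, against 89.8% of all microRNAs compared; none was counted, against 1.88% of all (0.538% higher, 1.34% lower). miR-20a* had the highest ratio, 0.50 (0.31 to 0.68), with 79.9 CPM in rtTA cells against 56.6 CPM in cells without rtTA. miR-18a and miR-17 had the lowest, -0.35 (-0.38 to -0.31) and -0.33 (-0.37 to -0.29). miR-92a was at -0.083, miR-20a at -0.042 (0.0075 by DESeq2 factors), miR-19a at 0.062, miR-19b at 0.11 and miR-17* at 0.11. The median was 0.010 over all 10 members and -0.062 over the 6 guides, against -0.071 over all microRNAs.

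The arms of 4 hairpins could be compared, since both of their strands were listed. The star arm made up nearly equal parts of the miR-17 hairpin: 49.7% (49.0% to 50.4%) in rtTA cells with dox, 49.4% (48.6% to 50.1%) in rtTA cells without dox, 50.8% (49.9% to 51.7%) in dox-treated cells without rtTA and 41.8% (41.0% to 42.6%) in untreated cells without rtTA. The untreated library without rtTA stood apart from the others, whose intervals overlapped. By its mean share of 47.9% the miR-17 hairpin was at place 5 of the 81 hairpins that had a named star arm and reached 20 counts, both arms together, in every library. In the miR-20a hairpin the star arm held 0.435% (0.393% to 0.479%) in rtTA cells with dox and 0.823%, 0.740% and 0.568% in the others in the same order. The induced library was the lowest, and its odds of the star arm differed from those of rtTA cells without dox by -0.93 on the log2 scale (-1.10 to -0.75). The arms differ in G (18.2% for miR-20a* and 30.4% for miR-20a), and the odds were not adjusted for the trend on G described below. With that trend subtracted, the ratios for dox in rtTA cells were -0.30 for miR-20a* and 0.11 for miR-20a, so the arms lay closer together.

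In the miR-19a hairpin, where the star is the 5′ arm, it held 0.725% (0.348% to 1.33%) in rtTA cells with dox, 1.27% in rtTA cells without dox, 2.29% (1.61% to 3.16%) in dox-treated cells without rtTA and 1.39% in untreated cells without rtTA. In the miR-18a hairpin it held 0.355%, 0.378%, 0.260% and 0.234%, with intervals that overlapped throughout. Compared directly, its odds of the star arm differed in rtTA without dox by 0.69 on the log2 scale (0.097 to 1.27). That interval was off equality but the value was short of 2-fold, and the intervals of its other comparisons spanned equality. By the 2-fold rule on the odds, 1 of these 4 hairpins was apart in rtTA with dox, against 24.7% of the 81. It was miR-19a, at -1.63 (-2.63 to -0.64), on the same 10 and 36 counts of miR-19a* as above. None of the 4 was apart with dox in rtTA cells, against 17.3% of the 81, with dox alone (7.41%) or with rtTA alone (3.70%).

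**Figure D4:**
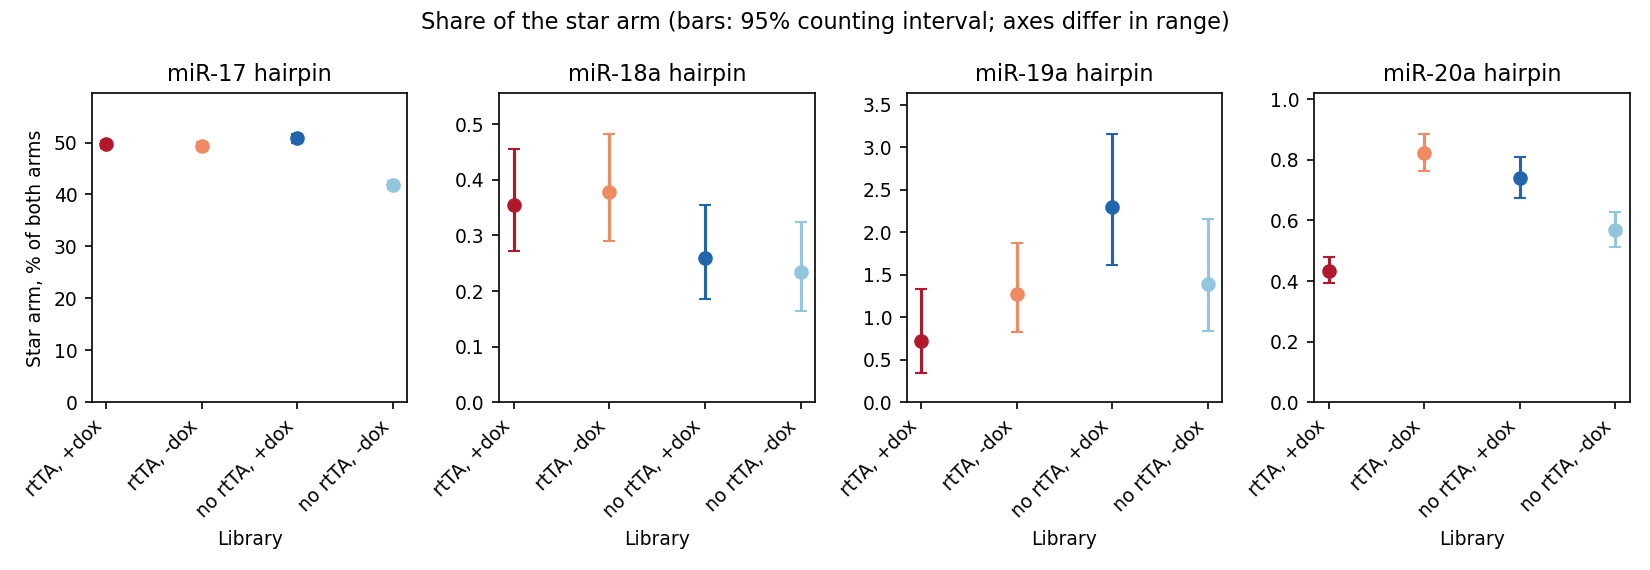
Share of the star arm in the counts of both arms, in percent, for the miR-17, miR-18a, miR-19a and miR-20a hairpins in the 4 libraries, with 95% Clopper-Pearson intervals; each panel starts at 0 and has its own range. The star arm of miR-17 is at 41.8% in untreated cells without rtTA and at 49.4% to 50.8% in the others, and that of miR-20a is lowest, at 0.435%, in rtTA cells with dox.

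Base composition moved with the ratios of the induced library. Across the 372 microRNAs, which share the same libraries and are not independent, the Pearson correlation of the log2 ratio with the percentage of G was 0.72 for dox in rtTA cells and 0.69 for rtTA with dox, against -0.20 for dox without rtTA and -0.0038 for rtTA without dox. The members hold 17.4% G (miR-19a and miR-19b), 18.2% (miR-18a*, miR-19a* and miR-20a*), 23.8% (miR-92a), 30.4% (miR-17, miR-18a and miR-20a) and 36.4% (miR-17*). With a linear trend on G subtracted, the ratios for dox in rtTA cells were 0.043 for miR-17, 0.049 for miR-18a and 0.11 for miR-20a. miR-17* turned to -0.19 and miR-19a to 0.062, and miR-19b was at 0.45. miR-92a was at -0.64 and miR-20a* at -0.30, so both were below 0 with and without the trend. The median of the members was then 0.046, against -0.10 over all. In rtTA with dox, miR-17* and miR-19a also turned sign (-0.15 and 0.042), and miR-92a was at -0.38. There miR-19a* was at -1.68 and was counted as lower. Since it passed the floor only through the reference library of this ratio, nothing is read from that count.

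**Figure D5:**
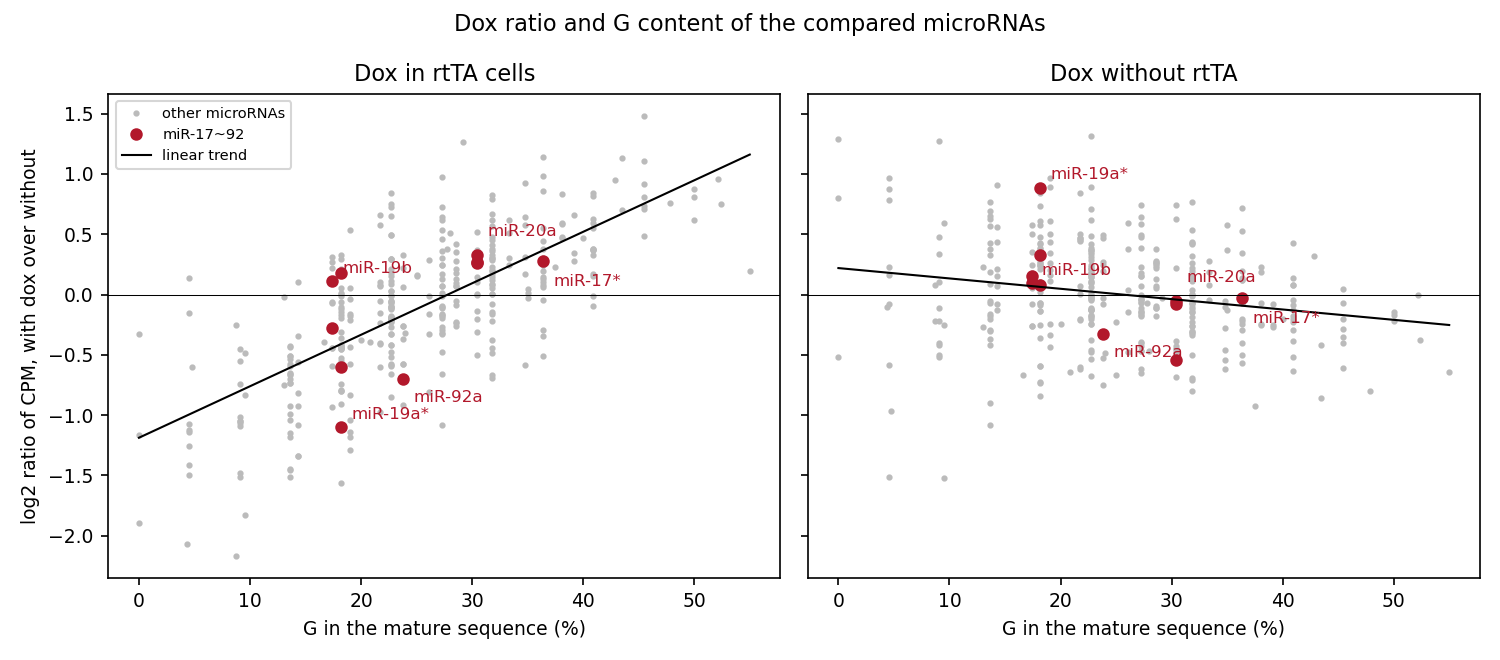
Log2 ratio of CPM with dox over without, against the percentage of G in the mature sequence, for dox in rtTA cells on the left and dox without rtTA on the right; grey points are other microRNAs, red points the 10 members and lines the linear trends. In rtTA cells the trend rises with G (Pearson correlation 0.72), miR-20a and miR-17* lie near the line and miR-92a, at -0.70 with 23.8% G, lies below it.

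Each seed group also holds microRNAs from other loci. Of the summed counts of the miR-17 seed group, which counts miR-93, miR-106a, miR-106b and miR-20b besides miR-17 and miR-20a, the cluster provided 72.9% in rtTA cells with dox, 72.7% in rtTA cells without dox, 76.5% in dox-treated cells without rtTA and 76.5% in untreated cells without rtTA. Of the miR-92 seed group miR-92a made up 54.4%, 55.9%, 54.8% and 66.6%, counts of its chromosome X copy included, and most of the rest was miR-25. For dox in rtTA cells the 5 members of the miR-17 seed group past the floor had ratios of 0.10 to 0.33 with a median of 0.26, none of them counted as higher or lower, against 9.95% of all microRNAs. The 4 of the miR-92 seed group past the floor all lay below 0, as did 200 of all 372 microRNAs, with a median of -0.64. They were miR-92a at -0.70, miR-25 at -0.58, miR-92b at -0.53 and miR-32 at -1.14. miR-32 fell by the 2-fold rule, as did 8.60% of all microRNAs. With the trend on G subtracted miR-32 was at -0.65, short of 2-fold. The medians of these 2 groups were then 0.043 and -0.55, against -0.10 over all microRNAs. In dox without rtTA the miR-92 group did not run together, with miR-92a at -0.33, miR-92b at -0.59, miR-25 at 0.37 and miR-32 at 0.69.

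The related miR-106b-25 cluster, whose microRNAs carry the same miR-17 and miR-92 seeds, was less abundant. Its 5 listed microRNAs summed to 5898 CPM in rtTA cells with dox, 5352 CPM in rtTA cells without dox, 4289 CPM in dox-treated cells without rtTA and 4285 CPM in untreated cells without rtTA. The sum of miR-17~92 was 3.20 times that sum in rtTA cells with dox, 3.03 times in rtTA cells without dox, 3.74 times in dox-treated cells without rtTA and 4.03 times in untreated cells without rtTA. This ratio was thus lower in both rtTA libraries, by -0.22 on the log2 scale with dox (-0.25 to -0.20) and by -0.41 without dox (-0.43 to -0.38). The sums were not adjusted for the trend on G. With that trend subtracted, the ratio for rtTA with dox went from 0.67 to 0.18 for miR-93 and from 0.34 to 0.078 for miR-20a. Of the 5, miR-106b* was counted as higher in rtTA without dox, at 1.03 (0.86 to 1.20), against 0.538% of all microRNAs. None was counted with dox in rtTA cells, against 9.95% of all, in dox without rtTA (1.61%) or in rtTA with dox (16.7%). In miR-25, the counterpart of miR-92a, the ratios were -0.58 for dox in rtTA cells, 0.37 for dox without rtTA, -0.31 for rtTA with dox and 0.64 for rtTA without dox.

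The profile of each member over the 4 libraries, centred on its own mean of log2 CPM, was also compared with those of the other 371 microRNAs past the floor by the root mean square distance. None of the 10 members had another member among its 3 nearest profiles. Members are few among the 371 profiles and no base rate was computed, so this count does not tell whether they run together. The nearest to miR-20a was miR-130b (0.021), to miR-17 miR-181a (0.033), to miR-18a miR-434-5p (0.025) and to miR-92a miR-301a (0.064). miR-19b was nearest to let-7i (0.028), miR-19a to miR-107 (0.062) and miR-19a* to miR-350 (0.082), and the cluster sum to miR-187 (0.033). For the other star strands it was miR-30c-2* for miR-17* (0.019), miR-99a for miR-18a* (0.0077) and let-7f for miR-20a* (0.050). Seen from miR-20a the closest member was miR-17*, at place 7 of 371, and from miR-92a it was miR-19a, at place 62. These distances rest on 4 libraries and are given as a description.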

How the data were processed

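The authors deposited raw counts of reads for each listed microRNA in each library, and the file headers give the library titles and name no processing step. The sources used here do not name the aligner, its settings, the microRNA database or a genome build. Where a microRNA was absent from a table its count was set to 0, and the row for the shRNA was left out of library totals.

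CPM, log2 ratios and exact conditional binomial (Clopper-Pearson) 95% intervals were computed for all 508 microRNAs with Python 3.11.15 and scipy 1.17.1, and those with a mean of at least 3.14 CPM were compared. The intervals were checked on simulated counts with known folds. Differences of ratios, changes of within-library ratios and arm odds used delta-method intervals, all counts being raised by 0.5. TMM factors came from edgeR 4.0.16 and size factors from DESeq2 1.42.0, for scaling only. The trend on G was fitted over the 372 compared microRNAs and subtracted around their mean of 25.3% G.

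All 10 members are named. Of each related list, those counted as higher or lower are named, and up to 4 others of highest mean CPM. Each member has its 3 nearest profiles, of which the first is printed. The members and lists were chosen with earlier results of these data known.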

Additional observations from a re-analysis of the deposited data

Results flagged for a closer look

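The dox ratio of miR-19a* was apart between the pair of rtTA libraries and the pair without rtTA: the difference, with rtTA minus without, was -1.92 on the log2 scale, with a counting interval (-3.23 to -0.62) off equality. By the same rule 18.0% of all 372 microRNAs were apart. It rests on 10 and 25 counts in rtTA cells with and without dox and on 36 and 19 counts in cells without rtTA with and without dox. It was -1.85 with TMM factors, -1.87 with DESeq2 factors, -1.96 with the shRNA in the total and -1.56 with the trend on G subtracted. miR-19a* passed the floor of 3.14 CPM only through its 5.50 CPM in dox-treated cells without rtTA, a library that enters the difference, so the value is a description. Without replicates the spread between libraries at such counts is unknown.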

How the results depend on the processing

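Without star names, or without miR-19a* (an alternative added after seeing the data), 0 members were counted in rtTA with dox and 0 had dox ratios apart between the genotypes, since miR-19a* was the 1 counted in both. With the shRNA in the total, 1 member was counted for dox in rtTA cells. The median for rtTA with dox was 0.16 with TMM, 0.16 with DESeq2 factors, -0.013 with the trend on G subtracted, 0.0036 with rows of 1 seed group summed and 0.12 without miR-19a*. Without star names the median for rtTA without dox was -0.062. The median for dox without rtTA, near 0, turned to -0.018 with TMM, -0.065 without star names and -0.025 without miR-19a*. The other counts of members called stayed as reported under each alternative. Floors of 5 counts or none could not change them, since all 10 members already passed the floor in use. Shares move with their denominator. Without star names miR-20a took 68.8%, 63.8%, 63.6% and 61.1% of the cluster and miR-92a 5.67%, 10.7%, 9.07% and 10.6% (rtTA with dox, rtTA without dox, no rtTA with dox, no rtTA without dox). Without miR-19b and miR-92a, miR-20a took 70.3%, 69.0%, 68.0% and 66.4%. With miR-19b in the denominator miR-19a* held 0.148%, 0.321%, 0.613% and 0.358%. Of 455 values of single members under alternatives, 386 stayed within their interval or kept their call, 68 moved and 1 became a call. Many of the 386 stayed by construction. Changing the floor, leaving out star names or miR-19a*, or summing seed groups cannot change a member's own ratio. With the trend on G subtracted, 20 log2 ratios moved and 20 stayed, and 8 differences of dox ratios moved and 2 stayed. No paired analysis was possible because each group has 1 library and the labels give no replicate numbers. Depth limits miR-19a* and miR-18a*, whose counts did not pass 63; 3 counts, the limit at 0, are 0.342 to 0.470 CPM.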

Other observations

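MYC, which is known to switch on miR-17~92, is also known to hold down a set of other microRNAs, among them let-7, miR-15a, miR-16, miR-22, miR-26, miR-29, miR-30 and miR-34a. Of 27 such guide strands 26 passed the floor. For dox in rtTA cells 6 lay above 0 and 20 below, against 172 above and 200 below of all 372 microRNAs. The median was -0.28 against -0.057 over all, and none was counted as higher or lower, against 9.95% of all microRNAs. With the trend on G subtracted the median was -0.35, against -0.10 over all. The most abundant members pointed both ways, with miR-22 at 0.25, let-7i at 0.15, miR-29b at -0.27 and miR-29a at -0.45.

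For dox without rtTA 13 lay above 0 and 13 below, against 171 above and 201 below of all microRNAs. The median was 0.031, against -0.039 over all. For rtTA with dox the median was -0.093, against -0.074 over all. By the 2-fold rule 3 of the 26 fell, against 14.2% of all microRNAs. They were miR-26b at -1.19, miR-30b at -1.13 and miR-29c at -1.02. With the trend on G subtracted they were at -1.12, -0.30 and -0.65 in that order, so that only miR-26b of the 3 stayed past 2-fold. With TMM and DESeq2 factors, tried after seeing the data, miR-29c was at -0.91 by both and the other two stayed past 2-fold. For rtTA without dox 16 lay above 0 and 10 below, against 155 above and 217 below of all microRNAs. The median was 0.12, against -0.071 over all. The list holds the let-7, miR-29 and miR-30 families, whose ratios were known when it was chosen.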
